A study of Mus musculus with 64 samples.

Results

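The genes described here are 10 of the 49671 in the count table: Nfe2l2, which encodes the transcription factor NRF2, Keap1, which encodes its repressor, and 8 genes that NRF2 is known to drive, Gclc, Gclm, Slc7a11, Txnrd1, Srxn1, Prdx1, Hmox1 and Nqo1. They are the rows that carry these symbols, a rule that uses no measured value. RNA was sequenced from CD11b-selected microglia, the resident macrophages of the brain, in 64 libraries that form 16 groups of 4: hippocampus or frontal cortex, labelled Day or Night, under 1 of 4 conditions, named Soci, Cogn, Ctr0 or Ctr1. The mice were C57BL/6 in the labels and C57BL6/N in the study's methods, which give males 9 to 10 weeks old, and no genotype or drug was named for any group. What the 4 condition names stand for is not given by the labels. The study sampled 1 time in the light phase and 1 in the dark phase of a reversed light-dark cycle, and Day and Night are used here as labels. Cells were dissociated cold by Dounce homogenisation, passed through Percoll and selected on anti-CD11b beads, which also hold macrophages of the brain borders. The labels do not say which libraries came from the same animal or whether a library is 1 animal, so p-values measure the spread between libraries.

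NRF2 is a transcription factor that binds antioxidant response elements together with small MAF proteins. In resting cells KEAP1 holds NRF2 in the cytoplasm and presents it to a CUL3 ubiquitin ligase, so NRF2 is made and degraded continuously. Electrophiles and oxidants modify cysteines of KEAP1, NRF2 then escapes degradation, and genes for glutathione synthesis, thioredoxin recycling and haem breakdown are transcribed. The regulation is therefore mostly of the protein, which RNA libraries do not measure. In microglia the pathway is known for limiting oxidative damage and inflammatory gene expression.

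Each library held between 10.2 and 84.5 M counts, with medians of 17.6 M in the hippocampus and 13.4 M in the frontal cortex, and 3 hippocampal libraries of replicate 4 (Night Soci, Night Cogn and Day Cogn) were the deepest at 62.2 to 84.5 M. Levels are given as CPM, counts relative to the library total after TMM scaling over the 64 libraries, and 3 counts, taken as the floor of counting error, correspond to between 0.031 and 0.316 CPM. All 10 microglial markers were present in these libraries, with a summed level of 11500 to 23900 CPM. The median of that sum was higher by day, at 15900 against 13800 CPM in the hippocampus and 17500 against 14300 CPM in the frontal cortex, and 7 and 4 of the 10 markers were called higher by day. Genes of the dissociation response summed to 88.8 to 162 CPM. The median sum by night and day was 118 and 123 CPM in the hippocampus and 106 and 125 CPM in the frontal cortex. Of these 10 genes, 5 were called higher by day in the hippocampus and 1 lower. In the frontal cortex 2 were higher and 3 lower. Hspa1a and Hspa1b were called higher in both regions, by 0.89 and 1.95 log2 in the hippocampus and 1.13 and 1.85 in the frontal cortex. The part of this response in the changes of the members was not tested. In both regions the medians of further marker sums were lower by day. Neurons went from 148 to 114 CPM in the hippocampus and 156 to 94 CPM in the frontal cortex. Oligodendrocytes went from 229 to 156 and 223 to 147 CPM, and red cells from 77.8 to 42.2 and 75.6 to 41.1 CPM. Endothelial cells went from 735 to 601 and 695 to 609 CPM, and neutrophils with monocytes from 19.8 to 19.1 and 35.1 to 29.9 CPM. Of 8 neuronal markers 2 were called lower in the hippocampus and 7 in the frontal cortex, and of 7 endothelial markers 4 and 0. Markers of border macrophages, astrocytes and the choroid plexus are given beside the results they touch. In bulk libraries fewer cells of a type and less RNA per cell cannot be told apart.

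Among the 10 genes, the level per kilobase of exon was highest for Nfe2l2, with a mean of 22.2 CPM per kb over the 64 libraries. Gclc at 11.9 and Prdx1 at 11.2 CPM per kb came next, followed by Hmox1 at 6.8, Keap1 at 4.93, Txnrd1 at 3.34 and Gclm at 2.47 CPM per kb. Srxn1 at 1.19 and Slc7a11 at 0.847 CPM per kb were low. Nqo1, a quinone reductase that is a common readout of NRF2 activity, was lowest at 0.427 CPM per kb, and 24 of the 64 libraries held 3 or fewer of its counts. In this set the regulator's own transcript was thus more abundant per length than any of the 8 target transcripts.

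Promoters are shown for Nfe2l2, which rose by day, and for Srxn1, Prdx1 and Nqo1, which fell by day in the hippocampus. These members were picked by direction, and Gclc and Hmox1, which also rose, had no promoter entry. A relation between response element and direction therefore cannot be drawn from these windows. The windows are RefSeq sequences of build GRCm38.p6, 250 bases before to 50 bases after the annotated start, written 5′ to 3′ on the strand of the gene. Capitals mark every match to the core of the antioxidant response element, spelled TGACNNNGC or TGAGNNNGC and searched on both strands. The 4 windows lie at chr2:75704614-75704913 (minus strand) for Nfe2l2, chr2:152105274-152105573 (plus strand) for Srxn1, chr4:116685349-116685648 (plus strand) for Prdx1 and chr8:107403156-107403455 (minus strand) for Nqo1.
Nfe2l2: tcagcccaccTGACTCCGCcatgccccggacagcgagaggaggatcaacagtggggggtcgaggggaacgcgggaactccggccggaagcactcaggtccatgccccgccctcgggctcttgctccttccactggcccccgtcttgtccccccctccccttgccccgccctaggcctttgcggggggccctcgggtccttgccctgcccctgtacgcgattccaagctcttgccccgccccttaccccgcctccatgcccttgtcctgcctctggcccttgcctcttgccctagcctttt
Srxn1: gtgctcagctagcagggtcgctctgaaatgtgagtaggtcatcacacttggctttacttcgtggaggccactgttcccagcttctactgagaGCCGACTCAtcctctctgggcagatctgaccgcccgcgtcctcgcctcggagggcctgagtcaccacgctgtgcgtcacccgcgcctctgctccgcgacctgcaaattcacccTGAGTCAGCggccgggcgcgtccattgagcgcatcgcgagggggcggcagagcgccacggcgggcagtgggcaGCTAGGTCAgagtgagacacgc
Prdx1: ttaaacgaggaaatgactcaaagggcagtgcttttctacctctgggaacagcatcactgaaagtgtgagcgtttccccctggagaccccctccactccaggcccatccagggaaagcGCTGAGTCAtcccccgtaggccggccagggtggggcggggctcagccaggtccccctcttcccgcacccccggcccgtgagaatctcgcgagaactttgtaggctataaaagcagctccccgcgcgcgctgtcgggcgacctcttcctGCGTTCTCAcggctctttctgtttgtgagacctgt
Nqo1: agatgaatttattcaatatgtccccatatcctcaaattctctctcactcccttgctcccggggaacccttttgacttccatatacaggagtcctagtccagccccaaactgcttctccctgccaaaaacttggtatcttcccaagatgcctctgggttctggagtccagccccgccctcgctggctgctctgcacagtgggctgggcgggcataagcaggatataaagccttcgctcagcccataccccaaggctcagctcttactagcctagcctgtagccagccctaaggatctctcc
Srxn1 held 3 matches, at -158 to -150, -45 to -37 and 29 to 37 from the start, and the forward match at -45 reads TGAGTCAGC. Prdx1 held 2 matches and Nfe2l2 held 1, while the Nqo1 window held none. Bases beyond these windows were not searched, so elements further from a start would be missed. Of the 10 genes, 8 had an entry in the promoter table, all but Gclc and Hmox1, and 6 of those 8 held at least 1 match (Gclm, Slc7a11 and 1 of the 3 promoters of Txnrd1 besides the 3 above). Of all 32851 promoter windows in the table, 27.8% held a match. That share counts windows, and the 8 genes had 10 of them. A match is a description of these letters and shows no binding. The E-box CACGTG, the sequence that the clock factors CLOCK and BMAL1 bind, was in none of the members' windows and in 7.15% of all windows.

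Nfe2l2 rose by day in both regions, Hmox1 and Gclc rose with it, and Srxn1 fell. In the hippocampus 6 of the 10 genes passed the test of day against night (16 against 16 libraries, edgeR quasi-likelihood test, adjusted p under 0.05), 3 higher and 3 lower by day. That comparison called 42.2% of all genes tested, 23.4% higher and 18.8% lower by day, so a count of 6 among 10 is read against that share and no result about the group is taken from it. Of the 9 genes tested in the frontal cortex 5 passed, 4 higher and 1 lower by day, beside 41.8% of all genes, 20.6% higher and 21.3% lower by day. The median log2 difference of the members was -0.03 in the hippocampus and 0.04 in the frontal cortex, and that of all genes tested was 0.023 and -0.018.

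**Figure D1:**
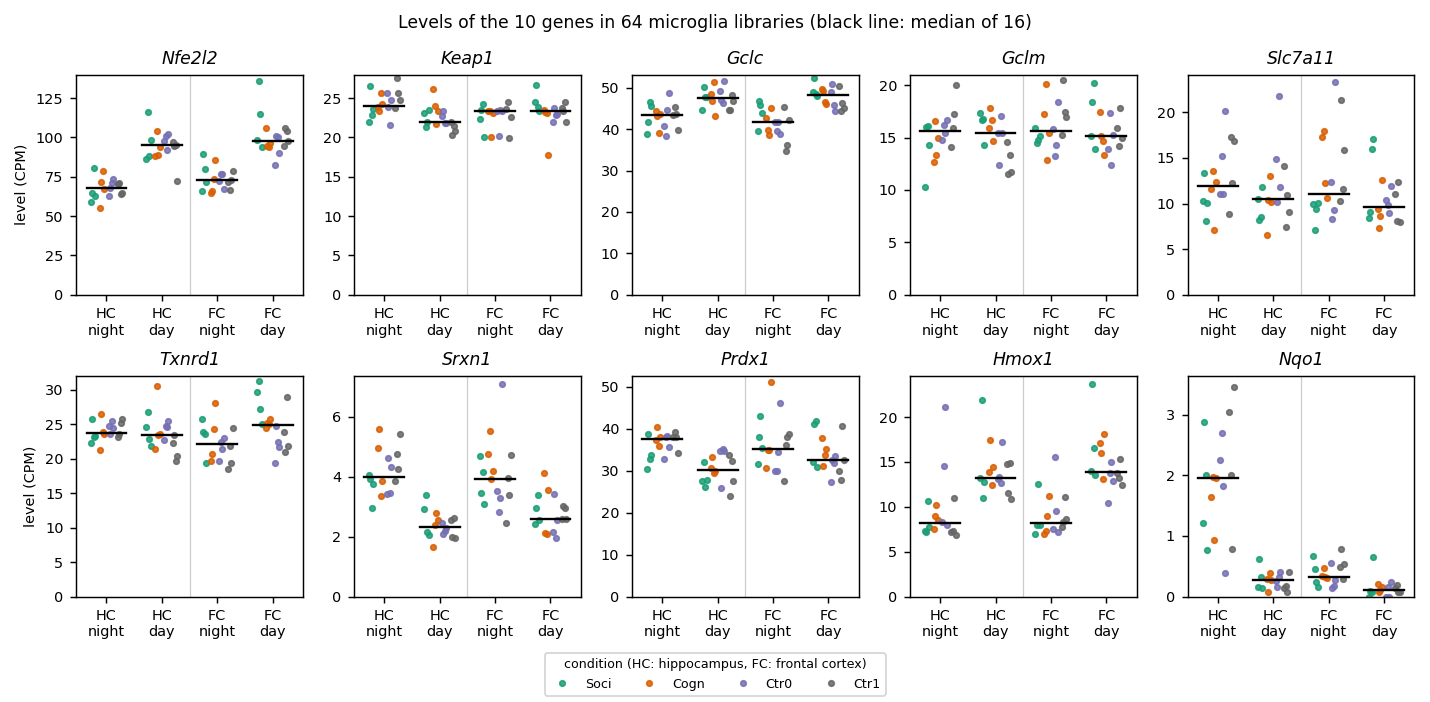
Level of each of the 10 genes in CPM (vertical axes, linear, from 0) in each of the 64 libraries, by region and phase (HC, hippocampus; FC, frontal cortex), with the condition in colour and the median of 16 libraries as a black line. Nfe2l2 and Hmox1 sit higher by day in both regions, Srxn1 sits lower, and Nqo1 is high in most night libraries of the hippocampus alone.

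Nfe2l2 (ENSMUSG00000015839, chr2:75675513-75704641, minus strand, GRCm38) had a lowest, median and highest level of 55.5, 67.7 and 80.7 CPM by night and of 72.3, 95 and 116 CPM by day in the hippocampus. In the frontal cortex the corresponding levels were 64.9, 72.7 and 89.3 CPM by night and 82.5, 97.9 and 136 CPM by day. In each region 15 of the 16 day libraries lay above the highest night library. The exception in the hippocampus was replicate 4 of Day Ctr1, at 72.3 CPM. The fitted log2 difference was 0.52 ± 0.05 (SE) in the hippocampus (1.43-fold, edgeR adjusted p = 4.2e-09) and 0.45 ± 0.05 in the frontal cortex (1.36-fold, edgeR adjusted p = 1.66e-07). The order of the group medians was hippocampus night, frontal cortex night, hippocampus day and frontal cortex day, and neighbours of the same phase overlapped.

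Keap1 (ENSMUSG00000003308, chr9:21229730-21239361, minus strand), the substrate adaptor that hands NRF2 to the ubiquitin ligase, had a narrow range and passed the test in neither region. Its median was 24.1 CPM by night and 22 CPM by day in the hippocampus, and 23.3 CPM in both phases in the frontal cortex. All 64 libraries lay between 17.8 and 27.5 CPM. The log2 difference was -0.08 ± 0.04 in the hippocampus (edgeR adjusted p = 0.1) and 0.04 ± 0.04 in the frontal cortex (edgeR adjusted p = 0.521). The hippocampal value was near the threshold and passed it, at -0.11, when scaled by median-of-ratios size factors (edgeR adjusted p = 0.0172). Keap1 shares 510 exon bases with the antisense gene Gm16754, and counting separated the strands: the median total count per kb of genes inside an intron was 820 on the strand of the host (515 genes) and 2.47 on the other (987 genes).

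Gclc and Gclm encode the catalytic and the modifier subunit of glutamate-cysteine ligase, the first and rate-limiting enzyme of glutathione synthesis, and only Gclc passed the test. Gclc (ENSMUSG00000032350, chr9:77754535-77794485, plus strand) had a lowest, median and highest level of 38.3, 43.4 and 48.8 CPM by night and 43.2, 47.4 and 51.6 CPM by day in the hippocampus. Its frontal cortex levels went from 34.8, 41.6 and 46.8 CPM by night to 44.3, 48.1 and 52.3 CPM by day. The groups overlapped in both regions, with 4 of 16 day libraries above the highest night library in the hippocampus and 9 of 16 in the frontal cortex. The log2 difference was small but tight, 0.18 ± 0.04 in the hippocampus (edgeR adjusted p = 0.000106) and 0.21 ± 0.04 in the frontal cortex (edgeR adjusted p = 7.71e-05). The microglial marker sum was higher by day as well, with a median log2 difference of its 10 genes of 0.27 in the hippocampus and 0.21 in the frontal cortex, and its part in the rise of Gclc was not tested. With scaling to library totals alone the difference of Gclc was 0.02 and 0.13 and passed in neither region (edgeR adjusted p = 0.894 and 0.186), a scaling that moved the median of all genes to -0.14 and -0.09 log2.

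Gclm (ENSMUSG00000028124, chr3:122245557-122270732, plus strand) had medians of 15.6 CPM by night and 15.4 CPM by day in the hippocampus, and of 15.6 and 15.1 CPM in the frontal cortex. Its log2 differences were 0.02 ± 0.07 (edgeR adjusted p = 0.835) and -0.05 ± 0.07 (edgeR adjusted p = 0.588). The gene model shares 244 exon bases on its own strand with the pseudogene Gm6061, part of a stretch close to Ppia, so a share of its counts is uncertain. Over the 64 libraries Gm6061 held 49 counts and Ppia 85167.

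Slc7a11 (ENSMUSG00000027737, chr3:49892526-50443614, minus strand), the light chain of the cystine-glutamate antiporter that supplies cystine for glutathione, did not pass in either region. In the hippocampus its lowest, median and highest levels were 7.15, 12 and 20.1 CPM by night and 6.53, 10.5 and 21.8 CPM by day. Those of the frontal cortex were 7.13, 11.1 and 23.3 CPM by night and 7.28, 9.64 and 17.1 CPM by day. The phases overlapped almost wholly. The log2 differences of -0.11 ± 0.14 (edgeR adjusted p = 0.547) and -0.29 ± 0.15 (edgeR adjusted p = 0.119) did not pass. Without replicate 3 the hippocampal value was -0.36 and passed (edgeR adjusted p = 0.0334). The gene model holds a stretch of 585 bases that is 92.479% identical to Tuba1b, which held 59524 counts over the 64 libraries, so part of the counts of Slc7a11 is uncertain.

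Txnrd1 (ENSMUSG00000020250, chr10:82833951-82897712, plus strand), the cytosolic thioredoxin reductase, had medians of 23.7 CPM by night and 23.4 CPM by day in the hippocampus, with a log2 difference of 0.01 ± 0.05 (edgeR adjusted p = 0.876). Its lowest, median and highest levels in the frontal cortex were 18.5, 22.2 and 28 CPM by night and 19.4, 24.9 and 31.3 CPM by day. The groups overlapped there, and the log2 difference of 0.15 ± 0.06 was just past the threshold (edgeR adjusted p = 0.0483). Leaving out replicate 1, 2 or 3 ended the call, with adjusted p between 0.106 and 0.177 in the edgeR fit.

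Srxn1 (ENSMUSG00000032802, chr2:152105516-152111376, plus strand), which encodes sulfiredoxin, the enzyme that repairs over-oxidised peroxiredoxins, moved against Nfe2l2. In the hippocampus its lowest, median and highest levels were 2.95, 3.98 and 5.6 CPM by night and 1.66, 2.34 and 3.38 CPM by day. There 15 of 16 day libraries lay below the lowest night library. The frontal cortex had levels of 2.45, 3.93 and 7.08 CPM by night and 1.95, 2.6 and 4.11 CPM by day, where 5 of 16 day libraries lay below the lowest night library. The log2 difference was -0.76 ± 0.09 in the hippocampus (0.592-fold, edgeR adjusted p = 1.45e-07) and -0.56 ± 0.13 in the frontal cortex (0.68-fold, edgeR adjusted p = 0.000688). Srxn1 was lower by day in each of the 4 conditions and each of the 4 replicate numbers in both regions. This was the member whose promoter window holds 3 response element cores, and a relation of that count to the direction was not tested.

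Prdx1 (ENSMUSG00000028691, chr4:116685544-116700822, plus strand), a peroxiredoxin that sulfiredoxin repairs, also fell in the hippocampus. Its lowest, median and highest levels there were 30.4, 37.6 and 40.4 CPM by night and 23.9, 30.2 and 35.1 CPM by day, and 8 of 16 day libraries lay below the lowest night library. The log2 difference was -0.22 ± 0.05 (0.856-fold, edgeR adjusted p = 0.000676). The frontal cortex levels of 27.6, 35.2 and 51.1 CPM by night and 27.2, 32.6 and 41.7 CPM by day overlapped widely, and the difference of -0.11 ± 0.08 did not pass (edgeR adjusted p = 0.259). The 2 regions were not shown to differ in this change (difference of differences -0.16 ± 0.09, edgeR adjusted p = 0.601). Prdx1 has processed pseudogenes of high identity, which held 0 to 18 counts each over the 64 libraries, against 283 to 3271 counts of Prdx1 per library. The handling of reads with several matches is not given, so a share of the counts of Prdx1 is uncertain.

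Hmox1 (ENSMUSG00000005413, chr8:75093621-75100589, plus strand), which encodes the haem oxygenase that breaks haem into biliverdin, iron and carbon monoxide, rose in both regions. In the hippocampus its lowest, median and highest levels were 6.82, 8.14 and 21.1 CPM by night and 10.9, 13.2 and 21.9 CPM by day. Those of the frontal cortex were 6.92, 8.15 and 15.5 CPM by night and 10.4, 13.9 and 23.7 CPM by day. All 16 day libraries of each region lay above the night median, but a few high night libraries made the groups overlap. The log2 difference was 0.61 ± 0.13 in the hippocampus (1.52-fold, edgeR adjusted p = 0.000293) and 0.70 ± 0.11 in the frontal cortex (1.63-fold, edgeR adjusted p = 6.96e-06). In the hippocampus the replicate numbers differed: the day minus night difference in mean log2 CPM was 0.85, 0.77, 0.01 and 0.81 in replicates 1 to 4, and the highest night library, at 21.1 CPM, was replicate 3 of Night Ctr0. Replicate 3 had the highest night level of Hmox1 in each of the 4 conditions there. Of the 4 red cell markers, haemoglobin genes whose cells carry haem, 4 were called lower by day in the frontal cortex and 0 in the hippocampus, and their part in the change was not tested.

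Markers of border macrophages rose by day alongside Hmox1. Their summed level over 9 of 9 listed genes ranged from 686 to 1110 CPM by night and from 933 to 1490 CPM by day in the hippocampus, and from 780 to 1200 CPM and 963 to 1580 CPM in the frontal cortex, with none of the 9 at 0 in any library. Most of that sum was Stab1, with a median of 844 CPM, which was higher by day by 0.36 and 0.28 log2. Taken singly, 9 of 9 markers were called higher by day in the hippocampus and 7 of 9 in the frontal cortex, with median log2 differences of 0.68 and 0.43. With the score of these markers as a covariate, the mean of their log2 CPM in which each gene weighs the same, the day minus night difference of Hmox1 was 0.12 log2 in the hippocampus (edgeR adjusted p = 0.756) and 0.31 in the frontal cortex (edgeR adjusted p = 0.0851), past the threshold in neither. That fit called 5.94% of all genes in the hippocampus and 10.4% in the frontal cortex. The markers of the score moved with the phase, so that fit cannot separate score from phase. No cause is read from which members passed in it. Nfe2l2 passed in that fit, at 0.29 (edgeR adjusted p = 0.0101) and 0.37 (edgeR adjusted p = 0.00181). Gclc passed in the frontal cortex at 0.25 (edgeR adjusted p = 0.00338) and not in the hippocampus at 0.13 (edgeR adjusted p = 0.187). Srxn1 passed in the hippocampus at -0.66 (edgeR adjusted p = 0.0101) and not in the frontal cortex at -0.46 (edgeR adjusted p = 0.0955).

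Nqo1 (ENSMUSG00000003849, chr8:107388225-107403206, minus strand) had the largest difference of the 10 in the hippocampus, at the lowest level. Its lowest, median and highest levels were 0.39, 1.96 and 3.46 CPM by night and 0.0744, 0.269 and 0.62 CPM by day. There 15 of 16 night libraries lay above the highest day library, and 13 of 16 day libraries lay below the lowest night library. The log2 difference was -2.70 ± 0.28 (0.154-fold, edgeR adjusted p = 5.57e-09). Frontal cortex levels were 0.142, 0.33 and 0.788 CPM by night and 0, 0.101 and 0.66 CPM by day, from 105 and 31 counts in all. Nqo1 fell below the count filter there, and its log2 CPM was 1.09 lower by day in a 2-sided permutation test with 100000 resamples (p = 0.00011, lower in 4 of 4 conditions). The size of that difference depends on the prior count, since 14 of the 16 day libraries held 3 counts or fewer: it was -1.65 with a prior count of 0.5, and -0.85 to -1.36 without 1 replicate number.

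The level of Nqo1 in the hippocampus moved with markers of the choroid plexus, an epithelium of the brain ventricles. The summed level of 7 of 7 such markers ranged from 11.4 to 2890 CPM by night, with a median of 1630, and from 1.73 to 910 CPM by day, with a median of 265. Of the 7, Kcne2, Folr1, Aqp1 and Prlr were at 0 in 1 to 7 of the 64 libraries. The night library with the lowest marker sum, 11.4 CPM in replicate 4 of Night Ctr0, also had the lowest Nqo1 level of the night, 0.39 CPM, within the range of the day libraries. The night library with the highest marker sum, 2890 CPM in replicate 4 of Night Ctr1, had the highest Nqo1 level, 3.46 CPM. By day the library with the highest sum, 910 CPM in replicate 3 of Day Ctr0, had an Nqo1 level of 0.322 CPM. Night libraries with sums of 699, 712 and 897 CPM had 0.775, 1.21 and 0.789 CPM. With the choroid plexus score as a covariate, a fit added after the data were seen, the log2 difference of Nqo1 was -1.49 (edgeR adjusted p = 8.06e-05) against -2.70 without it. That fit called 26.7% of all genes, against 42.2% without the score. The choroid plexus markers moved with the phase, so the fit cannot separate score from phase. In the same fit Prdx1 was -0.14 and not past the threshold (edgeR adjusted p = 0.0985). There Srxn1 was -0.72 (edgeR adjusted p = 6.61e-05) and Nfe2l2 0.51 (edgeR adjusted p = 4.96e-06).

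**Figure D2:**
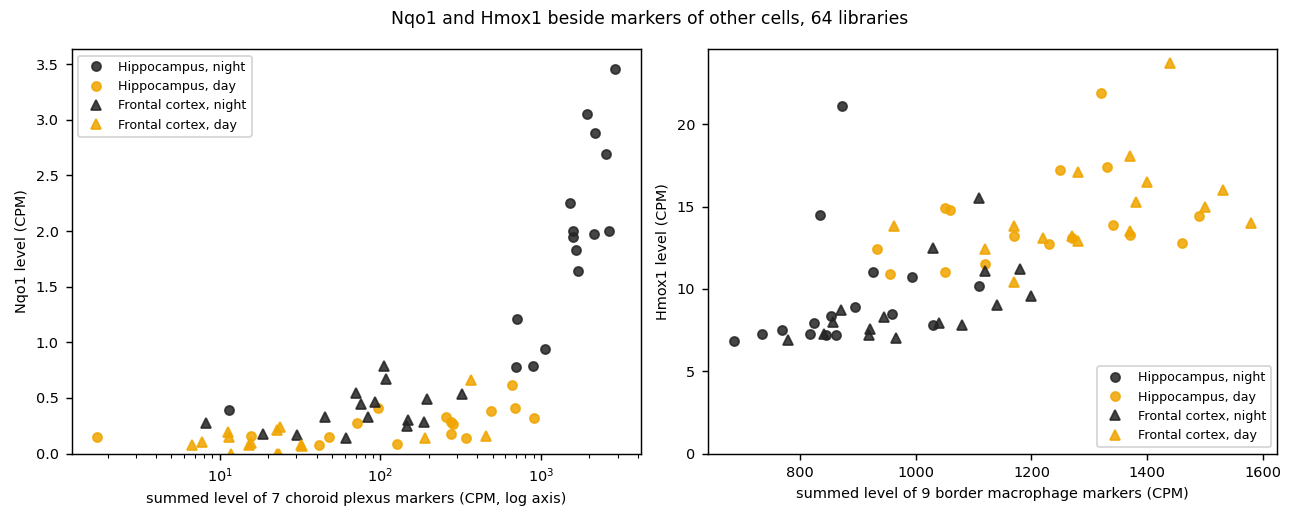
Left, the level of Nqo1 (CPM) against the summed level of 7 choroid plexus markers (CPM, log axis). Right, the level of Hmox1 (CPM) against the summed level of 9 border macrophage markers (CPM). Each point is 1 of 64 libraries, circles hippocampus and triangles frontal cortex, black night and orange day. Nqo1 is above 1 CPM in 12 libraries, all of the hippocampus by night, and Hmox1 and the border macrophage sum are both higher by day.

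A further fit held the scores of 7 other cell types together as covariates (border macrophages, neurons, astrocytes, oligodendrocytes, endothelial cells, choroid plexus, and neutrophils with monocytes). Markers of several of these cell types moved with the phase, so the fit cannot separate their scores from it. In the hippocampus 0 of the 10 genes passed in that edgeR fit, which called 0.625% of all genes there, and 5 had an unadjusted p under 0.05. The share of all genes under that unadjusted p is not given for this fit, so no result is taken from the 5. Nfe2l2 was 0.28 (edgeR adjusted p = 0.249), Srxn1 -0.60 (edgeR adjusted p = 0.248) and Nqo1 -1.28 (edgeR adjusted p = 0.259). In the frontal cortex the fit called 15.7% of all genes, and Nfe2l2 at 0.48 (edgeR adjusted p = 0.00134), Gclc at 0.35 (edgeR adjusted p = 0.00515) and Hmox1 at 0.64 (edgeR adjusted p = 0.0047) passed. Srxn1 turned to 0.10 there and was not called (edgeR adjusted p = 0.769). Astrocyte markers, all 8 present, ranged from 292 to 2520 CPM by night and from 334 to 644 CPM by day in the frontal cortex, and from 353 to 1900 CPM and 337 to 540 CPM in the hippocampus. The highest astrocyte sums were thus those of night libraries in both regions, and 7 of the 8 markers were called lower by day in each. The other marker, Slc1a3, was called higher by day in the hippocampus, at 0.4 ± 0.08 (edgeR adjusted p = 0.000129). It was not called in the frontal cortex. The part of the astrocyte markers alone in the change of Srxn1 was not tested.

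**Figure D3:**
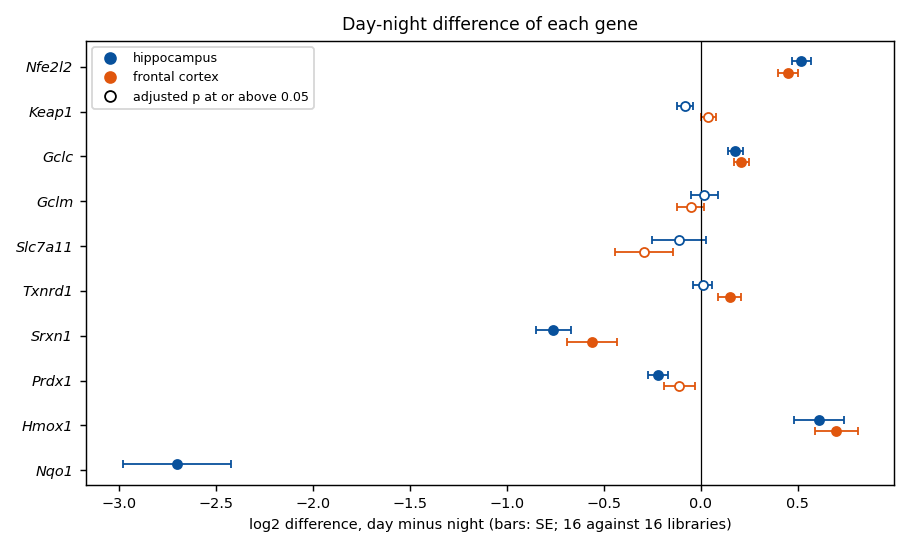
Log2 difference, day minus night, of each gene (points) with its SE (bars) over 16 day and 16 night libraries in the hippocampus (blue) and the frontal cortex (orange). Filled points have an adjusted p under 0.05. Nfe2l2, Gclc and Hmox1 lie to the right of 0 in both regions and Srxn1 to the left. Nqo1 was not tested in the frontal cortex by this fit.

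Nqo1 differed most between the regions. Averaged over day and night, 2 of the 10 differed between hippocampus and frontal cortex, beside 16.6% of all genes tested. Nqo1 was higher in the hippocampus by 1.55 ± 0.23 log2 (2.93-fold, edgeR adjusted p = 6.36e-07), where the choroid plexus sum was also higher in both phases (medians of 1630 and 265 CPM against 88.1 and 22.7 CPM). Nfe2l2 was lower in the hippocampus by a log2 difference of -0.10 ± 0.04 (edgeR adjusted p = 0.0442), and leaving out replicate 1, 3 or 4 ended that call. For the other 8 genes the difference lay between -0.09 and 0.03 log2, with SEs of 0.02 to 0.11.

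Whether the day-night change itself differed between regions was tested in 1 fit of all 64 libraries. It did so for 0 of the 10 genes in edgeR and in DESeq2, beside 1.19% of all genes. Unadjusted p was under 0.05 for 1587 of the 16069 genes tested and for 3 members. These were Keap1 at -0.15 ± 0.05 (hippocampus minus frontal cortex, unadjusted p = 0.00519), Nqo1 at -1.32 ± 0.51 (unadjusted p = 0.0113) and Txnrd1 at -0.19 ± 0.08 (unadjusted p = 0.0185). For Nfe2l2 the difference of differences was 0.03 ± 0.07.

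The 4 conditions did not separate the members. Averaged over the phases, 0 of 10 genes in the hippocampus and 0 of 9 in the frontal cortex differed among conditions in edgeR and in DESeq2, beside 0% of all genes tested in each region. In each region 1 member had an unadjusted p under 0.05, Slc7a11 in the hippocampus (0.0286) and Txnrd1 in the frontal cortex (0.0363). Among all genes 1090 of 16826 and 1094 of 16238 had an unadjusted p under 0.05. The 6 pairs of conditions in each region also gave 0 calls among the members by either tool, with 5 unadjusted p under 0.05 in the hippocampus and 4 in the frontal cortex. Over all genes edgeR called 0 to 2 of 16826 in a hippocampal pair and 0 of 16238 in a frontal cortex pair. Their unadjusted p was under 0.05 for 326 to 2460 genes per pair in the hippocampus and 495 to 1735 in the frontal cortex. Scaling to library totals alone gave 2 calls among conditions and 6 in pairs in the hippocampus. The share of all genes called with that scaling is not given here, so no result about the members is taken from these calls. The pair differences with the smallest unadjusted p were both Soci minus Ctr0, Slc7a11 in the hippocampus at -0.55 ± 0.19 (edgeR adjusted p = 0.558) and Txnrd1 in the frontal cortex at 0.23 ± 0.08 (edgeR adjusted p = 0.461). With 8 libraries in each condition and region, differences of this size could not be told from the spread between libraries.

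The day-night change did not differ among conditions for any member either, with 0 of 10 and 0 of 9 called in edgeR and in DESeq2, beside 0% and 0.00616% of all genes. In each region 1 member had an unadjusted p under 0.05, beside 695 of 16826 genes in the hippocampus and 603 of 16238 in the frontal cortex. Within each condition 4 day libraries were set against 4 night libraries. Nfe2l2 was higher by day in all 8 combinations of region and condition, by 0.35 to 0.58 log2 with an SE of 0.11 each. Srxn1 was lower in all 8, by a log2 difference of -0.37 to -0.95, and Gclc was higher in all 8, by 0.15 to 0.24.

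Hmox1 was higher by day in all 8 combinations, least in Ctr0, at 0.18 ± 0.24 in the hippocampus and 0.37 ± 0.22 in the frontal cortex. In the other 3 conditions it was 0.62 to 0.94. The mean night level of Hmox1 in the hippocampus was 13 CPM in Ctr0 and 8.07 to 8.78 CPM in the other 3 conditions, and the 2 highest night libraries, at 14.5 and 21.1 CPM, were both Ctr0. The test of a difference among conditions gave unadjusted p = 0.177 in the hippocampus and 0.229 in the frontal cortex, so Ctr0 was not shown to differ.

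Gclm and Slc7a11 changed sign between conditions. Gclm in the hippocampus was 0.24 ± 0.13 in Soci and -0.34 ± 0.13 in Ctr1 (unadjusted p = 0.014 for a difference among the 4, adjusted p = 0.999). Slc7a11 in the frontal cortex was 0.48 ± 0.28 in Soci and -0.62 ± 0.29 in Cogn (unadjusted p = 0.0364, adjusted p = 1 in edgeR). Neither passed the adjusted test.

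**Figure D4:**
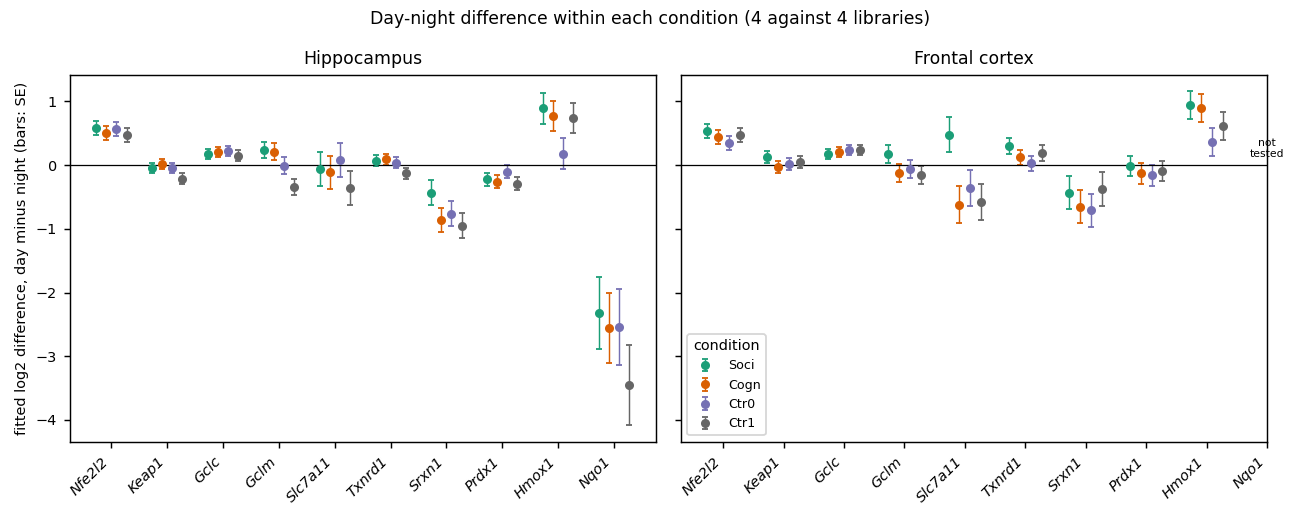
Fitted log2 difference, day minus night, of each gene within each condition (colours), 4 day against 4 night libraries, with SE as bars. Nfe2l2 and Gclc are above 0 and Srxn1 below 0 in all 8 combinations of region and condition, and Hmox1 is lowest in Ctr0 in both regions. Nqo1 was not tested in the frontal cortex.

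Among all genes compared, those whose 16 group means ran most like a member's were named for the 4 members called in both regions. For Nfe2l2 these were Stag2 (Pearson r of 0.989), Jak1 (0.989) and Abca9 (0.988). For Gclc they were Fuca1 (0.984), Selplg (0.973) and Itgb5 (0.973). For Hmox1 they were Bcl7b (0.959), Pdzd8 (0.942) and Ccdc47 (0.942). For Srxn1 they were Fkbp8 (0.955), Aldh1l1 (0.949), which is on the astrocyte marker list, and Med16 (0.943). The 16 means share the split into day and night, so these values describe likeness of pattern only.

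The wider pathway was described by 54 further genes listed by role, of which 53 passed the count filter and Chac1 did not. In the hippocampus 28 of 53 were called, 9 higher and 19 lower by day, and in the frontal cortex 19 of 53, 10 higher and 9 lower, read against the same backgrounds of 42.2% and 41.8%. Their median log2 difference was -0.09 in the hippocampus and 0.01 in the frontal cortex. Of all genes tested, 23.4% in the hippocampus and 20.6% in the frontal cortex were called higher by day, and 18.8% and 21.3% lower. The counts by role below are read against those shares, and no result about a role is taken from them.

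Regulators and adaptors that were called were all higher by day: 5 of 9 in the hippocampus and 4 of 9 in the frontal cortex. Bach2, a repressor that competes for the same elements, rose from a mean of 44.5 to 56.2 CPM in the hippocampus (0.37 ± 0.04 log2, edgeR adjusted p = 1.18e-08) and from 46.7 to 57.8 CPM in the frontal cortex (0.30 ± 0.04, edgeR adjusted p = 9.73e-07). Its relative Bach1, which represses Hmox1, rose by 0.32 and 0.29, and Mafg, a small MAF partner of both NRF2 and the BACH proteins, by 0.30 and 0.24. Cul3, the scaffold of the ligase that KEAP1 serves, rose by 0.16 and 0.11. Maff, another small MAF, rose in the hippocampus by 0.68 ± 0.18 (edgeR adjusted p = 0.00311). Bach1, Mafg, Maff and Cul3 lie outside the rule for named genes and were named after their values were seen.

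Glutathione genes that were called in the hippocampus were all lower by day, 8 of 13 tested, beside 18.8% of all genes. All 7 choroid plexus markers were called lower by day there as well, with a median log2 difference of -2.52. In the frontal cortex 0 of the 4 choroid plexus markers tested were called, with a median of -0.44. The part of these markers in the falls of the glutathione genes was not tested. With the scores of 7 other cell types as covariates no wider gene was called in the hippocampus, beside 0.625% of all genes. At an average log2 CPM of at least 2, the 3 largest falls of the whole list were those of the glutathione transferases Gsta4 (-0.83 ± 0.19, edgeR adjusted p = 0.000511), Gstm5 (-0.81 ± 0.12, edgeR adjusted p = 2.91e-06) and Gstm1 (-0.69 ± 0.15, edgeR adjusted p = 0.000363). Of the 13 glutathione genes 4 fell and 1, Gpx1, rose in the frontal cortex, with Gstm5 at -0.83 ± 0.17 (edgeR adjusted p = 0.000318) and Gstm1 at -0.79 ± 0.19 (edgeR adjusted p = 0.0016). Below that level Mgst1, a microsomal glutathione transferase named after its values were seen, fell by a log2 difference of -1.14 ± 0.20 in the hippocampus (edgeR adjusted p = 3.27e-05) and -0.83 ± 0.24 in the frontal cortex (edgeR adjusted p = 0.00569). Gstm1 in the frontal cortex was also more spread by night, with a mean of 13.4 CPM and an SD of 6.6 (n = 16), than by day, with a mean of 7.76 CPM and an SD of 1.68 (n = 16), and the astrocyte marker sum ranged more widely by night as well. The part of the astrocyte markers in the level of Gstm1 was not tested.

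Thioredoxin and peroxiredoxin genes moved both ways, 2 up and 4 down of 11 in the hippocampus and 2 up and 1 down in the frontal cortex. Txnip, which binds and inhibits thioredoxin, rose by 0.35 ± 0.05 (edgeR adjusted p = 3.73e-06) and 0.37 ± 0.07 (edgeR adjusted p = 0.000175), from means of 288 and 298 CPM by night to 356 and 384 CPM by day. Prdx6 fell in the frontal cortex by a log2 difference of -0.60 ± 0.15 (edgeR adjusted p = 0.00173). Of the superoxide and peroxide genes 3 of 4 fell in the hippocampus and 1 of 4 in the frontal cortex.

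G6pdx, the enzyme that opens the pentose phosphate pathway and supplies NADPH, had the largest rise of the list at an average log2 CPM of at least 2, from 24.6 to 31.3 CPM in the hippocampus (0.39 ± 0.05, edgeR adjusted p = 2.83e-07) and from 26 to 35.2 CPM in the frontal cortex (0.43 ± 0.08, edgeR adjusted p = 6.22e-05). The other NADPH genes called were 2 lower in the hippocampus and 1 higher and 1 lower in the frontal cortex. Low-level Me1, the cytosolic malic enzyme, and Aox1, an aldehyde oxidase, both named after their values were seen, fell most of the whole list, by log2 differences of -1.48 ± 0.18 and -1.47 ± 0.19 in the hippocampus. Haem and iron genes gave 1 call of 5 in each region, higher by day, and detoxification genes 2 of 5, both lower.

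**Figure D5:**
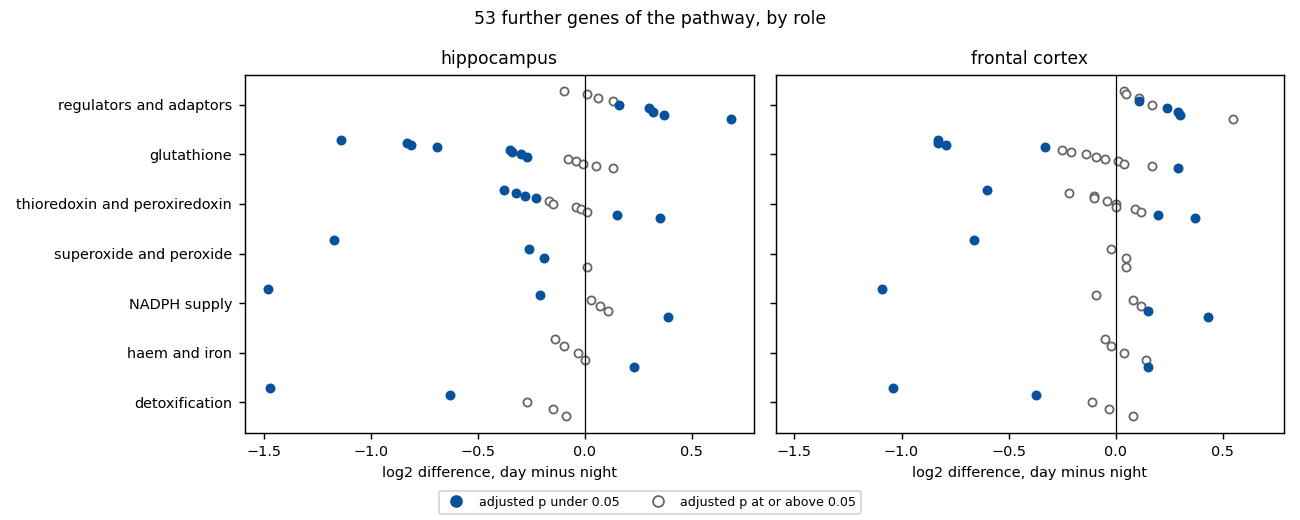
Log2 difference, day minus night, of 53 further pathway genes (points) by role in the hippocampus and the frontal cortex. Filled points have an adjusted p under 0.05. Called regulators lie to the right of 0 in both regions, and the 8 called glutathione genes of the hippocampus lie to its left.

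Between regions 8 of the 53 wider genes were called, 7 higher and 1 lower in the hippocampus, a count read against the 16.6% of all genes called. Ephx1, a microsomal epoxide hydrolase, was higher by 0.41 ± 0.08 (edgeR adjusted p = 4e-05), Prdx5 by 0.23 ± 0.05 (edgeR adjusted p = 0.000364) and Sod1, the cytosolic superoxide dismutase, by 0.19 ± 0.05 (edgeR adjusted p = 0.00795). Slc40a1, the iron exporter ferroportin, was lower by a log2 difference of -0.20 ± 0.03 (edgeR adjusted p = 5.16e-06). For Prdx5 and Ephx1 the day-night change also differed between regions, the 2 calls among 53 beside 1.19% of all genes, by -0.44 ± 0.10 (edgeR adjusted p = 0.00993) and -0.56 ± 0.15 (edgeR adjusted p = 0.0428). Ephx1 had means of 20.1 CPM by night and 12.6 CPM by day in the hippocampus, and 12.4 and 11.5 CPM in the frontal cortex.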

How the data were processed

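The authors depleted ribosomal RNA, mapped the reads of 64 libraries to the mouse genome (STAR 2.7.3a, GRCm38.p5 per the labels) and assigned them to genes with featureCounts of Subread 2.0.0. They deposited raw counts per gene, 49671 genes by 64 libraries, not scaled for depth or length. The strand setting and the handling of reads with several matches are not given in the sources used here. Symbols, positions and exon lengths were taken from GENCODE release 21 of the same build, which matched 49412 genes. Totals ran from 10.2 to 84.5 M counts, and Gm26917 alone took 35.4% of all counts, so levels are shares of a library. The floor of 3 counts covers counting error only. The SEs come from fits that also estimate the spread between libraries.

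Groups came from the sample titles. Day was compared with night in each region over 16 and 16 libraries with conditions pooled. One fit per region of 8 phase and condition means tested the conditions, their 6 pairs and the interaction, and 1 fit of 64 libraries with 4 means tested the regions. Tests were edgeR 4.0.16 quasi-likelihood F tests in R 4.3.3 after filterByExpr and TMM, adjusted by Benjamini-Hochberg over all genes tested, threshold 0.05. The SE is the log2 difference divided by the square root of F. Log2 CPM used a prior count of 2. Nqo1 fell below the filter in the frontal cortex and was tested by permutation. DESeq2 1.42.0 was an alternative, with other scalings, filters, covariates and libraries left out. The scripts were tested on simulated data.

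The members, the wider list, the markers and the tests were chosen with earlier results of these data known. The rule for named genes was all 10 members, the 3 largest rises and falls of the wider list per comparison at a mean log2 CPM of 2 or more, and the 3 genes most like each member called in both regions. No pair of libraries held identical values. Sequences are from RefSeq.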

Additional observations from a re-analysis of the deposited data

Results flagged for a closer look

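Within the 16 groups of 4 libraries, 160 sets of 4 values (10 genes by 16 groups) were examined for a library whose gap to the nearest other was past Dixon's 95% critical value for its share of the range. Of these, 10 were past it, and chance alone gives about 8.

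Nfe2l2 was low in replicate 4 of hippocampus Day Ctr1, at 72.3 CPM against 94.6 to 97.2 in the other 3 libraries. Keap1 was low in 3 libraries of the frontal cortex: 20 CPM in replicate 3 of Night Cogn (others 23.1 to 23.3), 20.2 CPM in replicate 2 of Night Ctr0 (others 23.3 to 23.5) and 17.8 CPM in replicate 4 of Day Cogn (others 23.1 to 23.5). Srxn1 was high in replicate 4 of frontal cortex Night Ctr0, at 7.08 CPM against 2.81 to 3.51. Prdx1 was low in replicate 2 of hippocampus Day Ctr0, at 25.9 CPM against 34.6 to 35.1.

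Hmox1 was high in replicate 3 of hippocampus Night Soci (10.7 CPM against 7.22 to 7.8), in replicate 3 of hippocampus Night Ctr1 (11 CPM against 6.82 to 7.25) and in replicate 4 of hippocampus Day Ctr0 (17.2 CPM against 12.7 to 13.3). Nqo1 was high in replicate 4 of frontal cortex Day Soci, at 0.66 CPM against 0 to 0.0959. The choroid plexus marker sum of that library was 366 CPM against 15.7 to 32.7 in the other 3. The frontal cortex library with the highest sum, 454 CPM in replicate 4 of Day Cogn, had an Nqo1 level of 0.155 CPM.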

How the results depend on the processing

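Over 40 gene results, 706 alternative values were computed, and 660 stayed on the same side of the threshold. A change of sign where neither the main nor the alternative value was called counts among these 660. A further 36 kept direction and lost the call, and 9 gained one. Where either value was called, 1 reversed, Srxn1 in the frontal cortex at 0.10 with scores of 7 other cell types. Where no value is named the cause was not tested.

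Day against night, 6 members were called in the hippocampus, 0 with the 7 scores (0.625% of all genes called) and 1 in replicate 4 only (0.736%, added after seeing the data). In the frontal cortex 5 were called, 3 with library totals alone (27.1%), 2 with the border macrophage score (10.4%) and 3 with the 7 scores (15.7%). Leaving out 1 replicate number gave 5 to 8 members in the hippocampus, beside 28.2% to 47.6% of all genes called. Nqo1 fell below the filter there without replicate 2. In the frontal cortex leaving out 1 gave 4 to 5 members, beside 26.5% to 43.2% of all genes. Between regions 2 were called, and 1 without a count filter (8.1%), with a stricter filter (16.9%) or with phase and condition means (16%). With the log2 library total 1 was called (10.5%), in replicate 4 only 0 (0%), and without 1 replicate 1 to 2 (8.29% to 22%). Library totals alone called 2 members among conditions and 6 in pairs of conditions in the hippocampus, where 0 were called. The share of all genes called by that scaling is not given for these comparisons, so no result is taken from the counts. Leaving out 1 replicate gave 0 to 0 for each other count of members.

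Of the wider genes 28 were called in the hippocampus, 9 with the border macrophage score (5.94% of all genes), 0 with the 7 scores, 0 in replicate 4 only and 27 to 33 without 1 replicate. In the frontal cortex 19 were called, 7 and 8 with the same 2 scorings and 13 to 22 without 1 replicate. Between regions 8 were called, and 16 with the 7 scores (31.3% of all genes against 16.6%). In replicate 4 only 0 were called (0%), and 6 to 10 without 1 replicate. The shares of all genes called without 1 replicate are those given above for the members.

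Scaling to library totals moved the median log2 of all genes to -0.14 and -0.09 for day against night and -0.11 between regions. Of the genes called, 262 of 4293 were then higher by day in the hippocampus against 3637 of 6550, 653 of 4065 in the frontal cortex against 3083 of 6266, and 854 of 2539 higher in the hippocampus against 1675 of 2667.

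Replicate numbers were not shown to pair the libraries: deviations of same-numbered libraries had a median correlation of 0.02 and 0.03 in the 2 regions and exceeded 0.1 in 39 and 48 of 112 pairs, against 104 and 107 of 336 pairs of other numbers, and 12 of 32 hippocampal libraries were closest to their own number. With the replicate block 6 members were called in the hippocampus (42.2% of all genes) and 4 in the frontal cortex (43.4%), Txnrd1 being lost at 0.16 (edgeR adjusted p = 0.0529). Depth limits Nqo1, at 3 or fewer counts in 24 of 64 libraries.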
